A study of Mus musculus with 6 samples.

Results

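Gfap, the gene of the glial fibrillary acidic protein, was examined as 1 of the 3733 genes in a deposited table of hippocampal gene expression in the mouse; it was picked by its symbol in that table (gene ID 14580). Total RNA of the hippocampus was sequenced in 6 libraries, 2 in each of 3 groups. The groups were PIA+IL-27, PIA and Control. PIA is the postnatal immune activation named in the study's title, which the design text gives as LPS, bacterial lipopolysaccharide, and in the PIA+IL-27 group recombinant IL-27 was given in addition. The labels name no strain, sex, age, dose, time of sampling or number of animals behind a library, so p-values cover the spread between these libraries only, which may be technical. The table is the authors' own selection of genes, each with a Q value up to 0.05 and a change of 1 or more on the log2 scale for some pair of groups, and other genes are not analysed here.

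GFAP is an intermediate filament protein that assembles, with vimentin and other partners, into the cytoskeleton of astrocytes. In the hippocampus it is abundant in the astrocytes of the neuropil and is also made by the radial stem cells of the dentate gyrus, whereas many astrocytes of the neocortical grey matter hold little of it. Its transcription is raised in reactive astrocytes, in part through STAT3 downstream of the gp130 cytokine receptors, and for this reason it is widely used as a marker of astrocyte reactivity. The IL-27 receptor contains gp130. In bulk tissue, fewer astrocytes and less Gfap RNA per astrocyte cannot be told apart.

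Gfap lies on the minus strand of chromosome 11 in GRCm38. GENCODE M21 gives it 3 transcripts. Gfap-201 is protein-coding, spans positions 102887336 to 102897131 and is 2648 bases long, Gfap-202 is protein-coding with another 3′ end and is 2600 bases long, and Gfap-203 is a non-coding transcript of 356 bases. The deposited counts are per gene, so the coding forms are counted together. No exon of another GENCODE gene overlaps an exon of Gfap, and the read counts of Gfap are whole in all 6 libraries, whereas 11.3 to 13.3% of the values of a library are not. The sequence around the start of Gfap-202 is shown because it holds the letters that STAT proteins recognise. It is taken from RefSeq (GRCm38.p6, chr11:102897191-102897350, minus strand) and runs from 150 bases before the RefSeq start at 102897200 to 10 bases into it. The capitals mark TTCNNNGAA, the STAT motif.

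Gfap promoter: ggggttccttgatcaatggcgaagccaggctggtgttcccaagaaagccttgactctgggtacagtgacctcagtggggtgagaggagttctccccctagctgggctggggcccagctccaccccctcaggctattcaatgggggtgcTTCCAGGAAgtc

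The match covers positions 102897194 to 102897202. It spans the RefSeq start at 102897200, so most of it lies inside Gfap-202, and it lies 63 bases upstream of the start of Gfap-201. Motifs were searched in RefSeq promoter windows of 1 length around a gene's start, longer than the stretch printed. Of 32851 such windows, 8.3% hold this motif on either strand. The AP-1 motif TGANTCA (7.81% of promoters), the NFI motif TTGGC (46.7%) and the E-box CANNTG (72.3%) were also searched on both strands and had 0 matches in the Gfap window. A match is a description of letters; binding was not measured.

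Gfap was an abundant transcript in every library, and its level was lowest in both PIA+IL-27 libraries. Read counts of Gfap, with replicate 1 before replicate 2 here and in what follows, were 3899 and 4889 in PIA+IL-27, 18676 and 5532 in PIA, and 14045 and 5799 in Control. After the authors' scaling, in which the read count is divided by 1 factor per library (0.917 to 1.05), Gfap had 4066 and 4747 normalized read counts in PIA+IL-27, 17945 and 6035 in PIA, and 13757 and 5522 in Control. PIA 1 and Control 1 stood high, and the other 4 libraries lay close together. In TPM, which corrects for transcript length and for the library's total, the values were 182.22 and 216.87 in PIA+IL-27, 747.82 and 242.31 in PIA, and 566.22 and 266.31 in Control. The order of the libraries on the normalized scale, from low to high, was PIA+IL-27 1, PIA+IL-27 2, Control 2, PIA 2, Control 1 and PIA 1. On the TPM scale PIA 2 and Control 2 changed places.

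**Figure D1:**
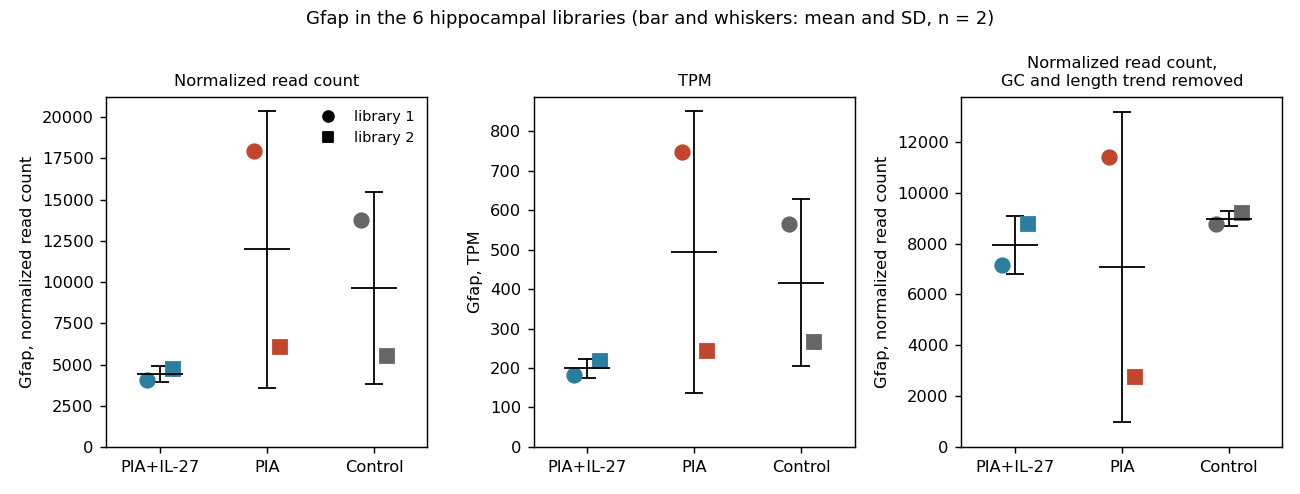
Gfap in each library by group, as normalized read count (left), TPM (middle) and normalized read count after removal of trends on GC content and transcript length (right); points are libraries, and bars and whiskers are the mean and SD of 2 libraries. On the left, both PIA+IL-27 libraries lie at 4066 and 4747, below the other 4 libraries, while PIA 1 (17945) and Control 1 (13757) stand far above their partners; on the right, PIA 2 (2767) is the lowest library.

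Gfap ranked between 3 and 24 by TPM among the 3733 listed genes of a library, and it made up 0.0182 to 0.0748% of all transcripts of a library. Of the transcripts of listed genes alone it made up 0.382 and 0.562% in PIA+IL-27, 2.04 and 1.01% in PIA, and 2.65 and 0.475% in Control. The exact Poisson interval (95%) of the read count had a half-width of at most 3.15% of the count, so counting error is small beside the spread between libraries of a group, and it covers counting error only. The higher library exceeded the lower 1.17-fold in PIA+IL-27, 2.97-fold in PIA and 2.49-fold in Control. The coefficients of variation were 10.9, 70.2 and 60.4% in the same order.

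Between PIA+IL-27 and PIA, which asks what the added IL-27 did in immune-activated animals, the level of Gfap in PIA+IL-27 was 0.367 of that in PIA, and the difference did not pass the test. Normalized read counts averaged 4406.2 ± 481.7 in PIA+IL-27 and 11990.3 ± 8421.4 in PIA (SD, n = 2 each), and the groups did not overlap. The log2 fold change was -1.44 ± 0.76 (SE; 95% interval -2.94 to 0.05), with an unadjusted p of 0.0581 and an adjusted p of 0.265 in edgeR's quasi-likelihood test over 3216 genes. In that comparison 14 genes passed (0.435%), and 16.5% of the listed genes were, like Gfap, lower in each PIA+IL-27 library than in either PIA library, while 57.1% were higher in that sense. PIA 2 was 6035 and PIA+IL-27 2 was 4747, so the separation of the groups is narrow at this edge. Without PIA 1 the log2 fold change was -0.45 (adjusted p = 0.726), and without PIA 2 it was -2.03 (adjusted p = 0.713). An exact two-sided permutation test of 2 against 2 libraries gave p = 0.33, the smallest it can give.

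Between PIA and Control, the comparison that addresses immune activation itself, Gfap did not differ beyond the spread between libraries. Normalized read counts averaged 11990.3 ± 8421.4 in PIA and 9639.3 ± 5823.2 in Control, and the groups overlapped, with PIA 2 (6035) below Control 1 (13757). The log2 fold change was 0.31 ± 0.75 (95% interval -1.15 to 1.78; adjusted p = 0.745, edgeR), and the exact permutation p was 0.667. In this comparison 7 of 3216 genes passed (0.218%). The interval covers a rise of more than 2-fold as well as a fall of that size. Without PIA 1 the log2 fold change was -0.68 and without Control 2 it was -0.20, whereas without Control 1 it was 1.12 and without PIA 2 it was 0.90; none of these passed.

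Between PIA+IL-27 and Control, Gfap was at 0.457 of the Control level, and again the difference did not pass. The means were 4406.2 ± 481.7 and 9639.3 ± 5823.2 normalized read counts in PIA+IL-27 and Control, and the groups did not overlap. The log2 fold change was -1.13 ± 0.76 (95% interval -2.61 to 0.35; adjusted p = 0.835, edgeR), with an exact permutation p of 0.33, the smallest possible. Of the listed genes, 7.5% were lower in each PIA+IL-27 library than in either Control library, and 10 of 3216 genes (0.311%) passed the test. Without Control 1 the log2 fold change was -0.33, and without Control 2 it was -1.64 (adjusted p = 0.16). For 154 listed genes (4.13%), Gfap among them, the PIA+IL-27 libraries were the lowest of the 6. The 3 comparisons share groups pairwise, so they are not independent.

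The authors' deposited table lists Gfap for both comparisons of PIA+IL-27 and not for PIA against Control. In the authors' deposited table the log2 fold change is -1.42 for PIA+IL-27 against PIA and -1.13 for PIA+IL-27 against Control, each with a Q value given as 0. For PIA against Control the authors' deposited table gives 0.29 with a Q value of 1.46e-97. Which test gave these Q values is unknown from the sources.

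The median log2 ratio of the listed genes differed between bins of GC content, the share of G and C bases in a transcript. Whether GC content had a part in the level of Gfap was not tested. The longest coding transcript of Gfap has 55.5% GC, above 87.5% of the 3574 listed genes with a value, whose median is 44.8%. Genes with a mean normalized read count of at least 50 were divided into 5 bins of GC content. For PIA+IL-27 against PIA, bins 1 to 4 had median log2 ratios of 1.62, 1.43, 1.33 and 1.15, and bin 5, which runs from 49.9 to 67.2% and holds 411 genes with Gfap among them, had -1.07 (quartiles -1.46 and -0.14). On this scale Gfap stood at -1.24, between the quartiles of its bin. For PIA against Control, bins 1 to 4 lay between -0.70 and -0.52 and bin 5 at 0.90, with Gfap at 0.26, also between its bin's quartiles of -0.36 and 1.28. For PIA+IL-27 against Control, bins 1 to 4 had medians of 0.94, 0.92, 0.84 and 0.66 and bin 5 had -0.32, and Gfap at -0.99 lay below the lower quartile of its bin (-0.77).

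**Figure D2:**
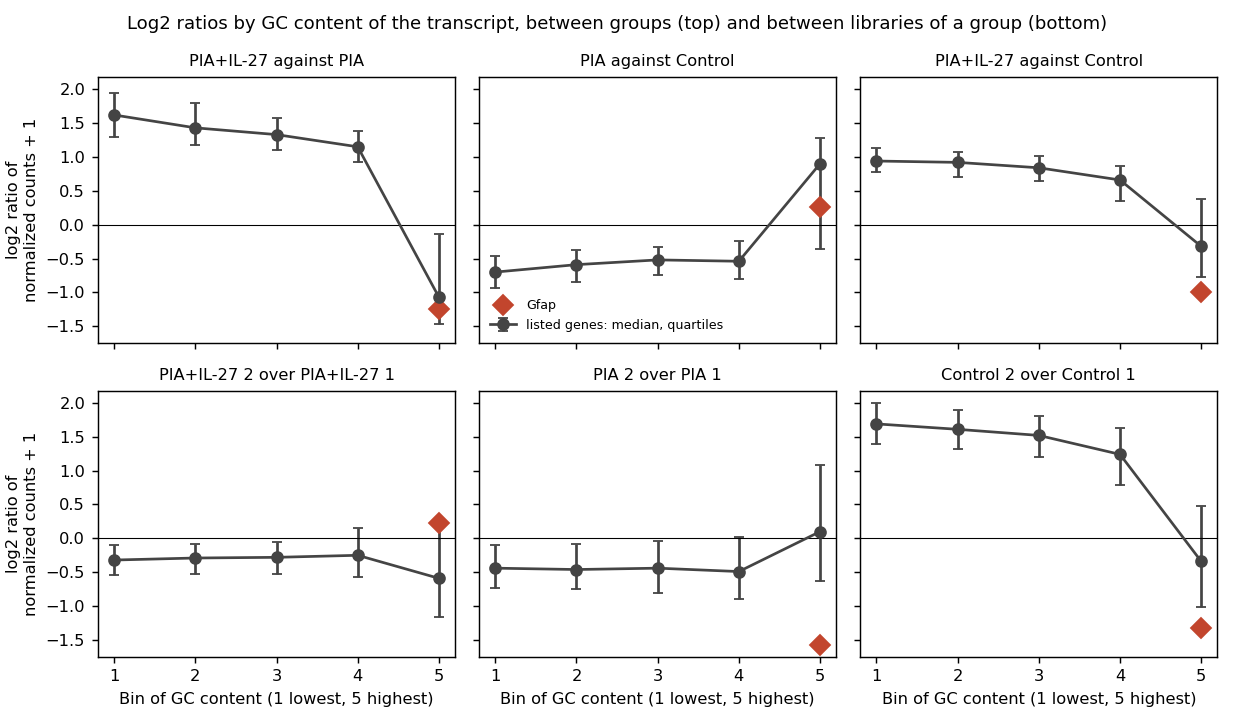
Log2 ratio of normalized read counts (1 added) against bin of GC content, for the 3 group comparisons (top) and for the 2 libraries of each group (bottom); black points and whiskers are the median and quartiles of the listed genes in a bin, and the red diamond is Gfap. The median falls to -1.07 in bin 5 for PIA+IL-27 against PIA, where Gfap lies at -1.24. Within groups the ratio is library 2 over library 1, a direction set by the numbering only. In that direction bin 5 is the highest bin within PIA, at 0.10, and the lowest within PIA+IL-27 and Control, at -0.59 and -0.34.

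Between the libraries of 1 group bin 5 also stood apart from bins 1 to 4, by an amount that differed between groups. Ratios are library 2 over library 1, so their sign is set by the numbering only. For PIA+IL-27 2 over PIA+IL-27 1 the medians of bins 1 to 4 lay between -0.32 and -0.25 and that of bin 5 was -0.59, with Gfap at 0.22, between its bin's quartiles of -1.16 and 0.26. For PIA 2 over PIA 1 bins 1 to 4 lay between -0.49 and -0.44 and bin 5 was higher, at 0.10, whereas Gfap at -1.57 lay below its bin's lower quartile of -0.63. For Control 2 over Control 1 the bins ran 1.69, 1.61, 1.52, 1.24 and -0.34, and Gfap stood at -1.32, below the lower quartile of its bin (-1.02). With loess trends on GC content and transcript length removed from each library, an alternative chosen after the data were seen, Gfap had 7144 and 8750 normalized read counts in PIA+IL-27, 11385 and 2767 in PIA, and 8762 and 9203 in Control. The Control libraries were then nearly equal and PIA 2 stood lowest. The log2 fold changes became 0.17 ± 0.66 for PIA+IL-27 against PIA (adjusted p = 0.84), -0.34 ± 0.66 for PIA against Control (adjusted p = 0.923) and -0.18 ± 0.66 for PIA+IL-27 against Control (adjusted p = 0.952). The trends were fitted on genes that the authors had selected for their differences, so they may also remove differences between the groups.

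Markers of neighbouring tissue varied between libraries as well, and their part in the level of Gfap was not tested. Summed over the 5 listed neocortical markers, normalized read counts were 8249 and 1625 in PIA+IL-27, 2266 and 5445 in PIA, and 2626 and 1183 in Control. The 4 listed markers of dentate granule cells, the defining neurons of the dentate gyrus, summed to 919 and 1900, 945 and 309, and 823 and 1942 in the same order of groups. The dentate markers did not run together. Prox1, the transcription factor of these neurons, had 172 and 1358 in PIA+IL-27, 627 and 96.0 in PIA, and 590 and 1296 in Control. Stxbp6, a syntaxin-binding protein, had 709 in PIA+IL-27 1, where Prox1 was low, 417 in PIA+IL-27 2, and 118 to 424 in the PIA and Control libraries. The 13 choroid plexus markers summed to 1397 and 1475, 12804 and 862, and 649 and 65812 in the same order, and single genes made up much of these sums. Ttr had 6.26 and 649, 11302 and 141, and 78.4 and 58611, and Enpp2 had 1139 and 556, 739 and 369, and 299 and 3527. For the 11 ependymal markers the sums were 243 and 1494, 480 and 396, and 938 and 1883. The 4 listed markers of meninges and vessels, by contrast, had lower sums in both PIA+IL-27 libraries than in all 4 others, as Gfap had lower counts. These sums were 4655 and 2802 in PIA+IL-27, 10282 and 6608 in PIA, and 10143 and 6994 in Control. Of these markers, 3 collagen genes of fibroblasts were lower in each PIA+IL-27 library than in all 4 others. This order was found in 4.13% of all listed genes. The remaining marker, Ogn, had 165 and 4.85 in PIA+IL-27, and 11.8 to 80.9 in the PIA and Control libraries. GC content was 52.5 to 58.9%, in bin 5, for the 3 collagen genes and 36.3% for Ogn. Col1a1 had 1041 and 762 in PIA+IL-27, 2423 and 2204 in PIA, and 3858 and 1461 in Control, Col1a2 had 2059 and 1100, 4128 and 2804, and 3725 and 3130, and Col3a1 had 1390 and 935, 3706 and 1585, and 2548 and 2322. The 4 listed microglial markers summed to 857 and 467, 1183 and 634, and 824 and 519, but they did not run together. Itgam had 350 and 116, 1137 and 409, and 740 and 90.5. P2ry12, in contrast, had 258 and 184, 9.61 and 56.7, and 14.7 and 232. Siglech had 59.4 and 50.5, 9.61 and 29.5, and 7.84 and 57.1, and Trem2 had 190 and 117, 26.9 and 139, and 60.7 and 139. The 3 listed oligodendrocyte markers summed to 497 and 185, 52 and 81, and 51 and 343. With a term in the fit for PIA+IL-27 1 and PIA 2, the libraries with the most neocortical marker RNA, the log2 fold change of Gfap was -1.24 ± 0.88 for PIA+IL-27 against PIA (adjusted p = 0.41), 0.60 ± 0.91 for PIA against Control and -0.65 ± 1.02 for PIA+IL-27 against Control. Without both libraries it was -1.92 ± 1.87, 0.90 ± 1.52 and -1.02 ± 1.64.

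Other genes of astrocytes had patterns unlike that of Gfap. Of 30 astrocyte markers 6 were listed. With all 6 libraries in the fit, 0 of them passed in any comparison in edgeR, DESeq2 or limma. At an unadjusted edgeR p under 0.05 there were 1 in PIA+IL-27 against PIA, 1 in PIA against Control and 0 in PIA+IL-27 against Control. Over all 3216 genes tested, 602, 202 and 92 were under 0.05 in that order of comparisons. Slc1a2, the main glutamate transporter of astrocytes, had 8016 and 9099 normalized read counts in PIA+IL-27, 5015 and 2719 in PIA, and 3673 and 10850 in Control. Aqp4, the water channel of astrocyte end-feet, had 1786 and 1908, 1031 and 457, and 643 and 1975 in the same order. For both genes, as for 57.1% of the listed genes, each PIA+IL-27 library was higher than either PIA library, the opposite order to Gfap. The log2 fold change of Aqp4 was 1.31 ± 0.83 (adjusted p = 0.296, edgeR). With TMM scaling over the listed genes it was 0.18 ± 0.35, beside -2.55 for Gfap. With edgeR on the libraries of PIA+IL-27 and PIA alone, 1 of the 6 markers passed. In that fit 449 of 3006 genes tested passed, 414 of them higher in PIA+IL-27 and 35 lower. Fabp7, a fatty acid-binding protein of astrocytes and radial glia, had 5252 and 8071 in PIA+IL-27, 3881 and 2674 in PIA, and 2800 and 6063 in Control. Agt, the angiotensinogen that astrocytes secrete, was nearest to Gfap in direction, with 79.2 and 284 in PIA+IL-27, 492 and 204 in PIA, and 259 and 478 in Control, but its groups overlapped. In PIA+IL-27 against PIA, 5 of the 6 had positive log2 fold changes and the median was 1.08, beside 1.17 over all genes tested. All 6 were higher in Control 2 than in Control 1, as were 75.1% of the listed genes, whereas Gfap was lower. The GC content of the 6 ran from 39.8 to 56.3% with a median of 44.0%, and that of Agt, 56.3%, was the only one above Gfap.

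**Figure D3:**
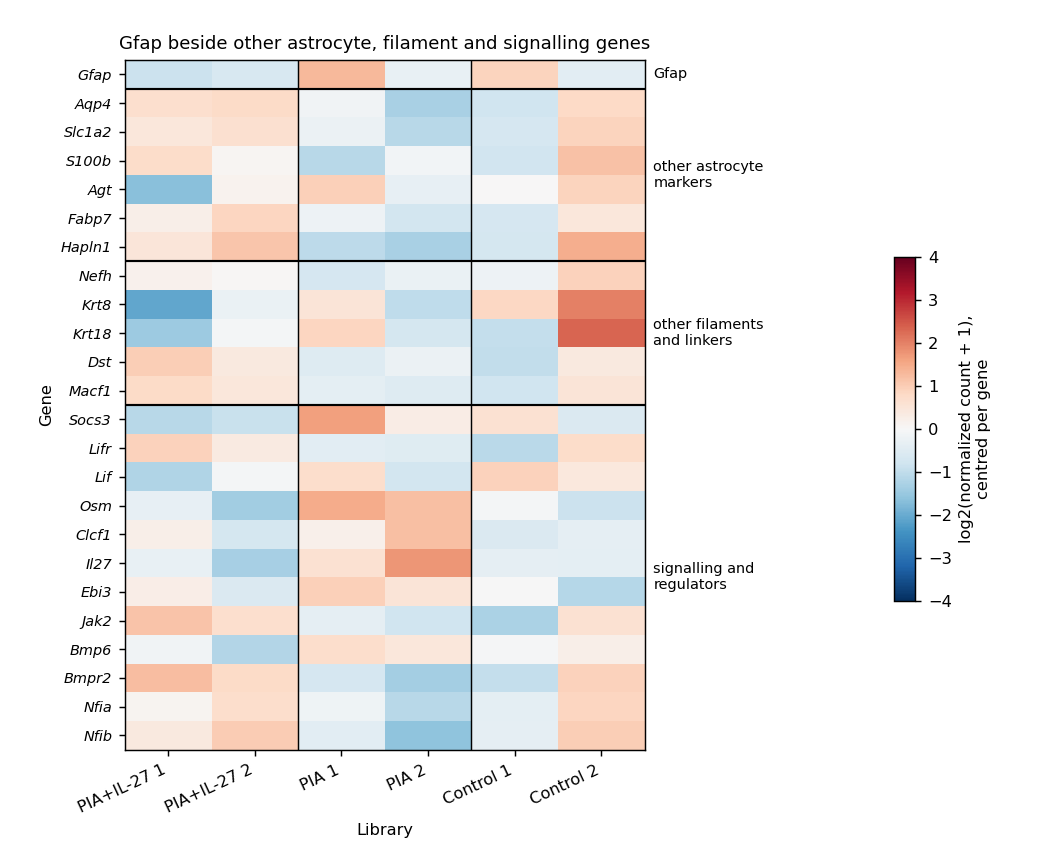
Log2 of normalized read count plus 1, centred on each gene's mean over the 6 libraries, for Gfap, the 6 other listed astrocyte markers, the 5 other listed filament and linker genes and 12 of the 13 listed genes of signalling and regulation; columns are libraries and colour runs from blue (below the gene's mean) to red (above). Gfap is high in PIA 1 and Control 1, whereas Aqp4, Slc1a2 and Fabp7 are high in both PIA+IL-27 libraries and in Control 2.

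The level of Gfap relative to these markers was accordingly spread widely. On the TPM scale with 1 added, the log2 ratio of Gfap to the geometric mean of the 6 markers was 2.28 and 2.09 in PIA+IL-27, 4.78 and 3.70 in PIA, and 4.71 and 1.98 in Control. Control 2 thus resembled the PIA+IL-27 libraries and Control 1 the PIA libraries. The difference of group means in this ratio was -2.05 for PIA+IL-27 against PIA and 0.89 for PIA against Control; on normalized read counts it was -2.17 and 0.98. Per length, Fabp7 was the most abundant of the 6, with 1329.55 and 1995.85 TPM in PIA+IL-27, 896.63 and 591.07 TPM in PIA, and 657.43 and 1625.57 TPM in Control, in each library above Gfap. Slc1a2 had 80.49 and 93.46 TPM in PIA+IL-27, 47.24 and 24.82 TPM in PIA, and 34.20 and 117.55 TPM in Control, in each library below Gfap.

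Of 19 other intermediate filament and linker genes 5 were listed, and 0 passed in edgeR, DESeq2 or limma in any comparison. At an unadjusted edgeR p under 0.05 there were 0 in PIA+IL-27 against PIA, 0 in PIA against Control and 2 in PIA+IL-27 against Control. Over all 3216 genes tested, 602, 202 and 92 were under 0.05 in that order. The 2 filament genes were Krt8 (log2 fold change -2.55 ± 1.16) and Krt18 (-2.15 ± 1.09), each with an adjusted p of 0.835 in edgeR. Vim and Nes, the usual partners of GFAP in astrocytes, are not among the listed genes and were not analysed here. The linkers Dst and Macf1 are giant plakins that tie filaments to microtubules and actin. They had more reads in both PIA+IL-27 libraries than in both PIA libraries, as 57.1% of the listed genes did. Dst had 3946 and 2609 normalized read counts in PIA+IL-27, 1396 and 1699 in PIA, and 1016 and 2663 in Control. Macf1 had 5620 and 4511, 2527 and 2327, and 1896 and 4734 in the same order. Nefh, the heavy neurofilament of axons, had 199 and 184 in PIA+IL-27, 110 and 148 in PIA, and 155 and 339 in Control. The epithelial keratins Krt8 and Krt18 were scarce, at 3.13 to 69.5 and 7.30 to 113 normalized read counts, and both were highest in Control 2, the library with the most choroid plexus RNA. All 5 were higher in Control 2 than in Control 1, as most listed genes were.

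Genes of the reactive astrocyte state were closer to Gfap. Of 37 such genes 22 were listed; 15 of them were highest in PIA 1, as Gfap and 12.4% of the listed genes were, and 3 were higher in Control 2 than in Control 1. In PIA+IL-27 against PIA 21 of the 22 had negative log2 fold changes with a median of -1.75, beside 1.17 over all genes tested, and in 13 each PIA+IL-27 library was lower than either PIA library (16.5% of listed genes). In PIA against Control 21 had positive values with a median of 1.47, beside -0.68 over all genes tested, and in 10 each PIA library was higher than either Control library (17.2% of listed genes). Of the 22, 16 had a GC content in bin 5, and many of them are also made by microglia, neutrophils or vessel cells.

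In PIA+IL-27 against PIA 3 of the 22 passed in edgeR, all lower in PIA+IL-27 (0.373% of genes tested were called lower), and 12 were lower at an unadjusted p under 0.05 (4.35% of genes tested); DESeq2 called 1 and limma 2. The genes that passed, named after their values were seen, were Lcn2, Steap4 and Cxcl10. Lcn2, the iron-sequestering lipocalin, had 50.1 and 2.91 normalized read counts in PIA+IL-27, 1496 and 46.9 in PIA, and 214 and 1.90 in Control (log2 fold change -4.86 ± 1.03 in PIA+IL-27 against PIA, adjusted p = 0.00117). Steap4, a metalloreductase induced by inflammation, had 15.6 and 0, 446 and 15.3, and 99.9 and 40.9 in the same order (-4.87 ± 1.13, adjusted p = 0.0067). Cxcl10, a chemokine induced by interferon, had 7.30 and 7.77, 238 and 124, and 39.2 and 2.86 (-4.57 ± 1.13, adjusted p = 0.0174). With edgeR on the libraries of PIA+IL-27 and PIA alone, 5 of the 22 passed, beside 449 of 3006 genes tested. There Cxcl10 passed (adjusted p = 0.0493), and Lcn2 (0.069) and Steap4 (0.0749) did not. In DESeq2 Cxcl10 passed (adjusted p = 0.00714), and Lcn2 (0.127) and Steap4 (0.118) did not. Without PIA 1 none of the 3 passed, with log2 fold changes of -0.83, -0.97 and -4.02, and none passed without Control 1, without Control 2, without PIA+IL-27 2, with TMM scaling or with a replicate block. Without PIA 2 Lcn2 and Steap4 passed, and without PIA+IL-27 1 Steap4 passed. In PIA against Control 0 of the 22 passed in edgeR or DESeq2, with 7 at an unadjusted p under 0.05, all higher in PIA (3.05% of genes tested), and limma called 0 with 1 added to TPM and 1 with 0.1 added. In PIA+IL-27 against Control 0 passed in edgeR, DESeq2 or limma, with 2 at an unadjusted edgeR p under 0.05. Over all 3216 genes tested, 92 were under 0.05 there.

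The 4 reactive genes with the most reads divided into those that shared with Gfap the high PIA 1 and Control 1 and those that did not. In none of the 22 listed reactive genes, these 4 among them, did both PIA+IL-27 libraries lie below all others. They did so for Gfap and for 4.13% of all listed genes. In 1 of the 22 both lay above all others. Serpina3n, a secreted protease inhibitor, had 223 and 460 normalized read counts in PIA+IL-27, 2535 and 200 in PIA, and 1226 and 638 in Control, so it shared with Gfap the high PIA 1 and Control 1. Its groups overlapped in PIA+IL-27 against PIA (log2 fold change -2.0 ± 0.86, adjusted p = 0.257), and without PIA 1 its log2 fold change there was 0.78. S1pr3, a sphingosine-1-phosphate receptor, had 214 and 320, 840 and 262, and 493 and 347 in the same order of groups, the same ranking of PIA 1 and Control 1. Its groups also overlapped in PIA+IL-27 against PIA. H2-D1, an MHC class I heavy chain, was high in both PIA libraries instead, with 1194 and 1535 in PIA+IL-27, 4088 and 4327 in PIA, and 2606 and 517 in Control. Its log2 fold change was -1.63 ± 0.81 in PIA+IL-27 against PIA (adjusted p = 0.262) and 1.43 ± 0.81 in PIA against Control (adjusted p = 0.617). In PIA against Control it was 3.02 without Control 1 (adjusted p = 0.109) and 0.69 without Control 2 (adjusted p = 0.998). C4b, a complement component, was highest in PIA 2, with 727 and 274 in PIA+IL-27, 725 and 1906 in PIA, and 779 and 285 in Control.

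**Figure D4:**
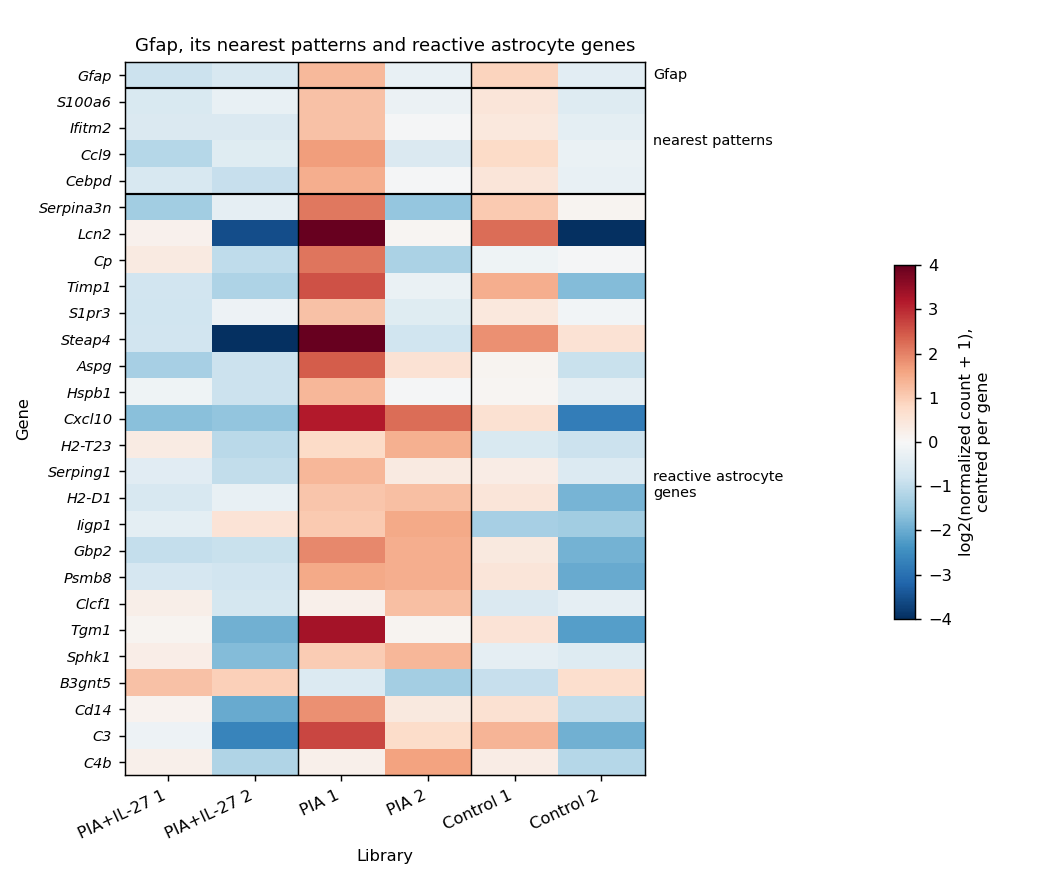
Log2 of normalized read count plus 1, centred on each gene's mean over the 6 libraries, for Gfap, 4 of the 5 genes nearest to it in pattern and the 22 listed reactive astrocyte genes; columns are libraries and the colour scale ends at 4 in either direction. PIA 1 is the highest library for Gfap, for the 4 nearest genes shown and for 15 of the 22 reactive genes. The nearest genes were chosen for their likeness to Gfap over these 6 libraries.

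Among genes of the cytokine and developmental signals that act on the Gfap promoter, 13 of 42 were listed and 12 tested. With all 6 libraries in the fit 0 passed in any comparison in edgeR, DESeq2 or limma. At an unadjusted edgeR p under 0.05 there were 2 in PIA+IL-27 against PIA, 0 in PIA against Control and 0 in PIA+IL-27 against Control. Over all 3216 genes tested, 602, 202 and 92 were under 0.05 in that order. The median log2 fold change in PIA+IL-27 against PIA was -0.46, beside 1.17 over all genes tested. Socs3, the feedback inhibitor of gp130 signalling and a target of STAT3, had 54.2 and 63.1 normalized read counts in PIA+IL-27, 368 and 143 in PIA, and 180 and 79.0 in Control. As with Gfap, both PIA+IL-27 libraries lay below all others and PIA 1 was highest. Of the 13 listed genes, 2 had both PIA+IL-27 libraries below all others (4.13% of all listed genes), and 1 had both above all others. Against PIA alone, 5 of the 13 were lower in each PIA+IL-27 library (16.5% of all listed genes) and 5 were higher (57.1%). The GC content of Socs3 was 58.7%, and 7 of the 13 genes were in bin 5. Socs3 falls outside the rule for named genes and was named after its values were seen. Nfia and Nfib, transcription factors of astrocyte development, had more reads in each PIA+IL-27 library than in either PIA library, as 57.1% of the listed genes did and unlike Gfap. Nfib had 1342 and 2081 in PIA+IL-27, 771 and 339 in PIA, and 811 and 2045 in Control (log2 fold change 1.62 ± 0.84 in PIA+IL-27 against PIA, adjusted p = 0.264), and Nfia had 738 and 1132, 612 and 319, and 526 and 1248. The BMP receptor Bmpr2 had 1592 and 1152 in PIA+IL-27, 423 and 263 in PIA, and 345 and 1284 in Control (2.0 ± 0.86, adjusted p = 0.257). With edgeR on the libraries of PIA+IL-27 and PIA alone, Bmpr2 passed (adjusted p = 0.0493), as the 1 gene of this list. In that fit 449 of 3006 genes tested passed, 414 of them higher in PIA+IL-27. With TMM scaling the log2 fold changes were 0.52 for Nfib and 0.81 for Bmpr2.

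Of 14 genes of neural stem cells, radial glia and their progeny 4 were listed. Of these Fabp7, given above, is a gene of radial glia and astrocytes, and the other 3 are genes of later stages of neurogenesis, which do not report on the stem cells that make GFAP. In the list 0 passed in edgeR, DESeq2 or limma in any comparison, with 0 at an unadjusted edgeR p under 0.05. Over all 3216 genes tested, 602 were under 0.05 in PIA+IL-27 against PIA, 202 in PIA against Control and 92 in PIA+IL-27 against Control. For Eomes, a transcription factor of amplifying progenitors, the libraries held 6.26 and 254 normalized read counts in PIA+IL-27, 122 and 3.27 in PIA, and 147 and 218 in Control. Its low libraries were PIA+IL-27 1 and PIA 2, those with high cortical markers. Dcx, a microtubule protein of immature neurons, had 10422 and 9443 in PIA+IL-27, 4898 and 2897 in PIA, and 3427 and 7535 in Control, and Neurod1, a factor of granule cell differentiation, had 268 and 992, 397 and 97.1, and 394 and 820.

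Among the 5 genes with the pattern nearest to Gfap, 4 are described here: S100a6, Ifitm2, Ccl9 and Cebpd. Nearness was the root mean square difference of centred log2 values over the 6 libraries, and it was 0.244, 0.245, 0.246 and 0.256 for these genes, with a median of 1.41 over the 2086 genes compared. S100a6, a calcium-binding protein, had 124 and 154 normalized read counts in PIA+IL-27, 430 and 160 in PIA, and 269 and 133 in Control. Ifitm2, an interferon-induced membrane protein, had 408 and 412 in PIA+IL-27, 1386 and 591 in PIA, and 830 and 468 in Control. Ccl9, a myeloid chemokine, had 29.2 and 46.6, 209 and 43.6, and 112 and 54.3, and Cebpd, a transcription factor induced in inflammation, had 67.8 and 56.3, 295 and 103, and 150 and 87.6. Each of the 4 was highest in PIA 1 and second highest in Control 1. Their log2 fold changes in PIA+IL-27 against PIA were -1.08, -1.27, -1.73 and -1.67, and none passed (adjusted p = 0.276 to 0.344, edgeR). Without PIA 1 they were -0.20, -0.53, -0.20 and -0.71. The genes were chosen for nearness to Gfap over these same 6 libraries. Their order of libraries, negative sign and smaller change without PIA 1 therefore largely follow from the choice. Their GC contents were 54.3, 54.4, 42.1 and 51.6%.

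**Figure D5:**
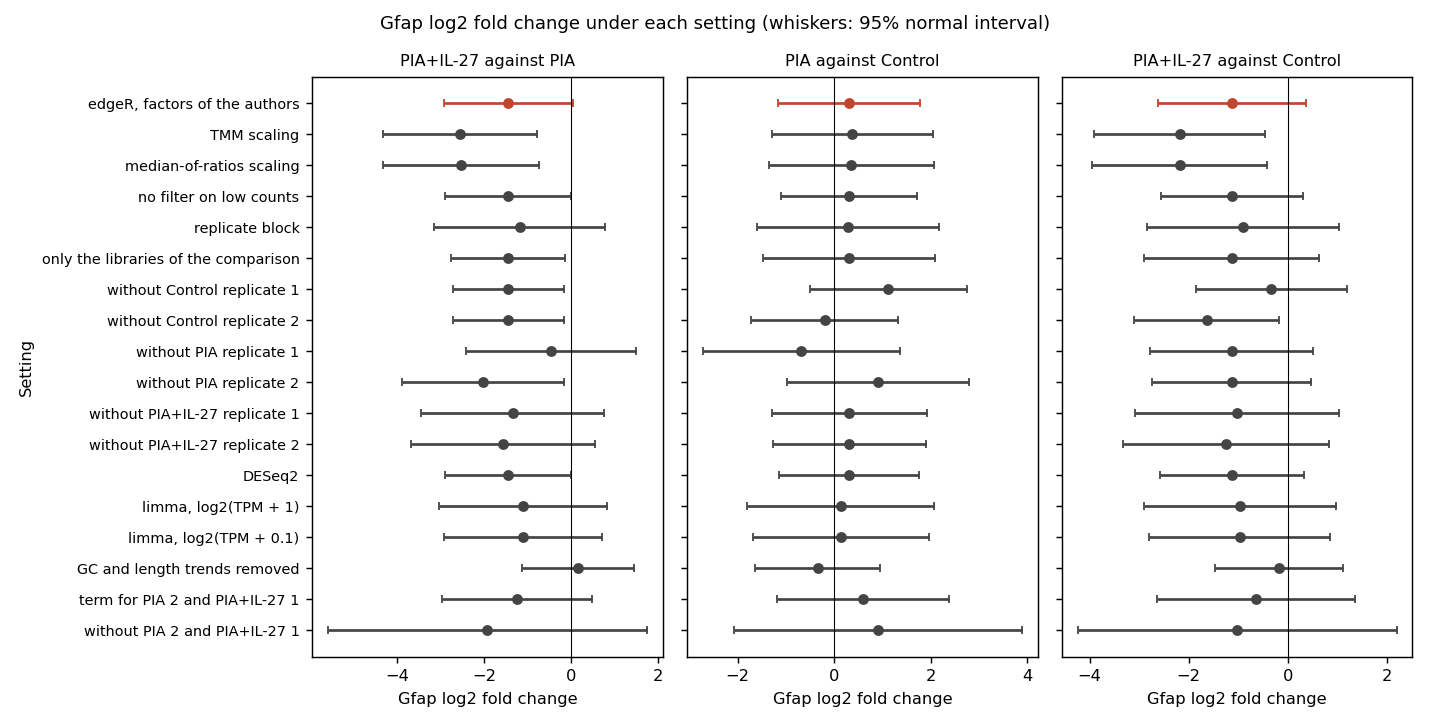
Log2 fold change of Gfap in each of the 3 comparisons under every setting tried, with whiskers of the 95% normal interval, which is not adjusted for the number of genes tested; the top row in red is edgeR with the authors' scaling. For PIA+IL-27 against PIA the values run from -2.55 to 0.17, with a positive value where trends on GC content and length were removed; for PIA against Control they lie on both sides of 0.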

How the data were processed

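Per the file headers, the authors deposited 1 table of 6 libraries with a read count per gene (an estimated count, in part not whole), a normalized read count (a signal equal to the rounded-up count divided by 1 factor per library, for 100% of values within a tolerance of 1e-06), TPM and FPKM per library, and log2 fold changes with Q values per comparison. Aligner, counter, build, strand setting and test: not given in the sources used here. Reads in listed genes numbered 641672 to 1593441 per library.

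The main test was edgeR 4.0.16 in R 4.3.3, a quasi-likelihood fit of the rounded counts of all 6 libraries with the authors' factors, after filterByExpr (3216 of 3733 genes), with Benjamini-Hochberg adjustment over these genes and a threshold of 0.05. The spread was pooled over genes (coefficient of variation 0.597), and an SE is the log2 fold change divided by the square root of its F. The script was tested on simulated data. DESeq2 1.42.0 and limma 3.58.1 on log2(TPM + 1) and log2(TPM + 0.1) were alternatives. GC content and length came from GENCODE M21 (3574 genes, 95.7%); loess trends had a span of 0.5.

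Gfap and the gene lists were chosen with earlier results of these data known. Named genes were all listed filament genes, the up to 4 most abundant genes of each other list, and the 5 nearest patterns (pseudocount 1, mean normalized read count of at least 50). Of the genes this rule names, 2 are not reported here.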

Additional observations from a re-analysis of the deposited data

How the results depend on the processing

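Gfap passed the threshold under no setting tried. For PIA+IL-27 against PIA its log2 fold change was negative under 16 of 17 alternatives (-2.55 to -0.45) and 0.17 with GC and length trends removed. For PIA against Control it was positive under 14 (0.13 to 1.12) and negative with those trends removed (-0.34); leaving out 1 library at a time gave -0.68 to 1.12 here, -2.03 to -0.45 for PIA+IL-27 against PIA and -1.64 to -0.33 for PIA+IL-27 against Control, where all 17 alternatives were negative (-2.18 to -0.18). The cause was not tested. TMM scaling over the listed genes moved the median of all genes in PIA+IL-27 against PIA to -0.03, from 1.17 with the authors' factors, and the log2 fold change of Gfap to -2.55.

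Counts of genes called, in the order PIA+IL-27 against PIA, PIA against Control and PIA+IL-27 against Control, were 14, 7 and 10 in edgeR. They were 0, 0 and 0 with TMM and with median-of-ratios scaling (591, 118 and 119, and 583, 114 and 110, at an unadjusted p under 0.05), and 4, 2 and 1 in DESeq2. Limma called 10, 6 and 2 with 1 added to TPM and 14, 12 and 5 with 0.1 added. Only the libraries of the comparison gave 449 of 3006 genes tested, 9 of 2987 and 1 of 3044. Removing GC and length trends gave 33, 28 and 19, a term for PIA 2 and PIA+IL-27 1 gave 2, 9 and 3, and leaving both out gave 0, 0 and 0 (74, 40 and 34 at an unadjusted p under 0.05); these 3 were chosen after the data were seen. Leaving out 1 library gave 0 to 7 in each comparison.

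With replicate number as a block the counts were 4, 3 and 3, and Gfap had -1.18, 0.28 and -0.90. Deviations of same-numbered libraries correlated at -0.36, 0.06 and 0.10 between groups, so the numbers were not taken as pairs, and the block ended the calls of Lcn2, Steap4 and Cxcl10 (adjusted p = 0.158 each). For Serpina3n in PIA+IL-27 against PIA, leaving out 1 library gave -2.89 to 0.78. The 5 nearest genes were the same 5 with a pseudocount of 10. Gfap had at least 3899 reads in each library.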
